A study of Bos taurus with 6 samples.

Results

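The genes described here are 5 subunits of the pumps that move sodium, potassium and calcium ions across the cell membrane: ATP1A4, ATP1B1, ATP1B2, ATP1B3 and ATP2B4. They are taken from the table by gene symbol, with earlier results of these data known, and they are 5 of the 47249 genes in the deposited table of genes. All 5 passed the filter on low values, as did 18115 genes in all. The study compared untreated testicular tissue of Wandong cattle, a local breed of Bos taurus, between 3 immature calves aged 3 months and 3 andrologically mature bulls aged 3 years. A total RNA library was made from each animal after removal of ribosomal RNA, with a protocol that keeps the strand. Libraries are named by age and number as in their titles (calf 1, bull 2), and each group held 3 animals that differed in age and had no other stated treatment, allele or genotype. The values are FPKM (fragments per kilobase, scaled to the mapped fragments of a library), a scale on which levels of genes of different length can be set side by side. No counts were given with the tables used here, so the counts behind a single value are unknown.

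The sodium pump sits in the membrane of nearly every animal cell, where it exports sodium and imports potassium at the cost of ATP. Its alpha subunit carries the catalytic and ion-binding sites, while its glycosylated beta subunit helps the pump to fold, reach the membrane and bind potassium. ATP1A4 encodes the alpha isoform of male germ cells, which is found in the sperm tail and is needed for sperm motility. ATP1B1, ATP1B2 and ATP1B3 encode beta isoforms, of which the ATP1B2 product is also known as an adhesion molecule on glia. ATP2B4 encodes a plasma membrane calcium pump, PMCA4, which exports calcium from the sperm flagellum and is also needed for motility.

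The tissue label was first compared with cell type markers, because calf 3 stood apart from the other 5 libraries. The summed FPKM of 17 markers of oligodendrocytes, astrocytes and neurons was 15613.9 in calf 3 and from 32.2 to 51.9 in the other libraries, and each of the 17 genes was highest in calf 3. The summed FPKM of 6 Leydig cell markers was 0.502 in calf 3, against 1406 in calf 1, 1141 in calf 2 and 1465 to 2738 in bulls, and CYP17A1 and CYP11A1 were listed at 0. Of 8 Sertoli cell markers, calf 3 had GATA4, FSHR and WT1 at 0, and the sum was 444.3 there against 1796 in calf 1, 1490 in calf 2 and 187.6 to 224.0 in bulls. Of the sum in calf 3, CLDN11, which oligodendrocytes also express, held 429.3. CLDN11 had 0.940 in calf 1, 18.2 in calf 2 and 62.8 to 84.0 in bulls. The other listed Sertoli cell genes were lower in each bull than in calf 1 and calf 2. The markers of calf 3 thus went against its tissue label, and the fold changes of the genes below are given with and without this library. The summed FPKM over all genes was lowest in calf 3, at 587066, and highest in calf 2, at 1098720, so the tables had not been scaled to a common total. In bulk tissue, a change in the number of cells of a type and a change in RNA per cell cannot be told apart.

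Germ cell markers also moved with age. The summed FPKM of 7 markers of elongating and elongated spermatids was from 1.89 to 4.13 in calves and from 13732 to 15556 in bulls. That of 7 markers of round spermatids was 0.546 to 2.66 in calves and 672.9 to 766.7 in bulls, and that of 8 markers of spermatocytes was 10.4 to 27.3 in calves and 302.2 to 380.0 in bulls. For 8 markers of spermatogonia the sums were 125.6 in calf 1, 165.1 in calf 2, 283.6 in calf 3 and 273.4 to 284.9 in bulls. In calf 3 most of that sum was UCHL1 (200.7), which neurons also express, while the germ cell genes DDX4 and DMRT1 had 0.0152 and 0.0938 there, against 14.0 and 44.9 in calf 1 and 20.2 and 68.9 in calf 2. In bulls DDX4 had 155.6 to 160.5 and DMRT1 had 72.2 to 80.2. UCHL1, ZBTB16, GFRA1, KIT and SALL4 were lower in each bull than in calf 1 and calf 2, and ID4 lay between these calves. The part of the germ cell markers in the results below was not tested. The other lists were summed in the same way. The sums ranged from 14.7 to 47.2 in calves and 60.3 to 69.9 in bulls for 5 genes of peritubular myoid cells, and from 75.8 to 159.3 and 120.1 to 192.2 for 6 genes of macrophages. Of the myoid genes, ACTA2 had 22.3 to 29.6 and MYH11 had 17.4 to 20.1 in bulls, and TAGLN was also higher in each bull. DES was lower in each bull than in calf 1 and calf 2, and CNN1 overlapped. Of the macrophage genes, AIF1 alone had 94.2 to 167.4 in bulls, while the other 5 were lower in each bull than in calf 1 and calf 2. For 5 genes of endothelial cells the sums were 8.91 to 33.3 in calves and 10.7 to 15.3 in bulls. For 5 genes of red blood cells they were 1.98 to 4.76 and 1.78 to 3.00, and for 5 genes of skeletal muscle 0.892 to 3.39 and 0.511 to 1.17. For 4 genes of epididymis and other epithelium they were 2.04 to 9.27 and 94.9 to 108.5, of which EPCAM held 84.0 to 102.0 in bulls.

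Of the 5 pump genes, 2 were higher in bulls (ATP1A4 and ATP1B3) and 1 was lower (ATP1B1), while ATP1B2 and ATP2B4 did not pass. Genes were called where the log2 fold change reached 1 in either direction and the adjusted p lay under 0.05, in a linear model of log2(FPKM + 1) fitted with limma and with Benjamini-Hochberg adjustment over all genes tested. Among all 18115 genes, 35.7% were called higher in bulls and 9.61% were called lower. When calf 3 was left out, ATP1B2 was also called higher, so that 3 genes were higher and 1 was lower, against 37.9% and 13.6% of all genes. The filter on low values was taken over all 6 libraries in both fits. A gene expressed only in calf 1 and calf 2 could not pass it, while a gene expressed only in bulls could. The shares of genes called higher and lower are therefore not on equal terms. The bulls lay above all calves for ATP1A4 and ATP1B3 and below all calves for ATP1B1 and ATP2B4, as they did for 46.1% and 21.3% of all genes tested. The median log2 fold change was -0.54 over the 5 genes, which is the value of ATP1B2, and 0.43 over all genes tested. Without calf 3 these medians were 1.11 and 0.43, so the sign over the 5 genes turned on calf 3. Under quantile normalization, which moved the median of all genes to -0.26, 2 of the 5 genes were higher and 2 were lower, against 21.1% and 25.1% of all genes. With calf 3 also left out, 1 was higher and 2 were lower, against 22.4% and 29.1% of all genes. The spread between animals of a group and that between sections of a testis cannot be told apart, because each animal gave 1 library.

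**Figure D1:**
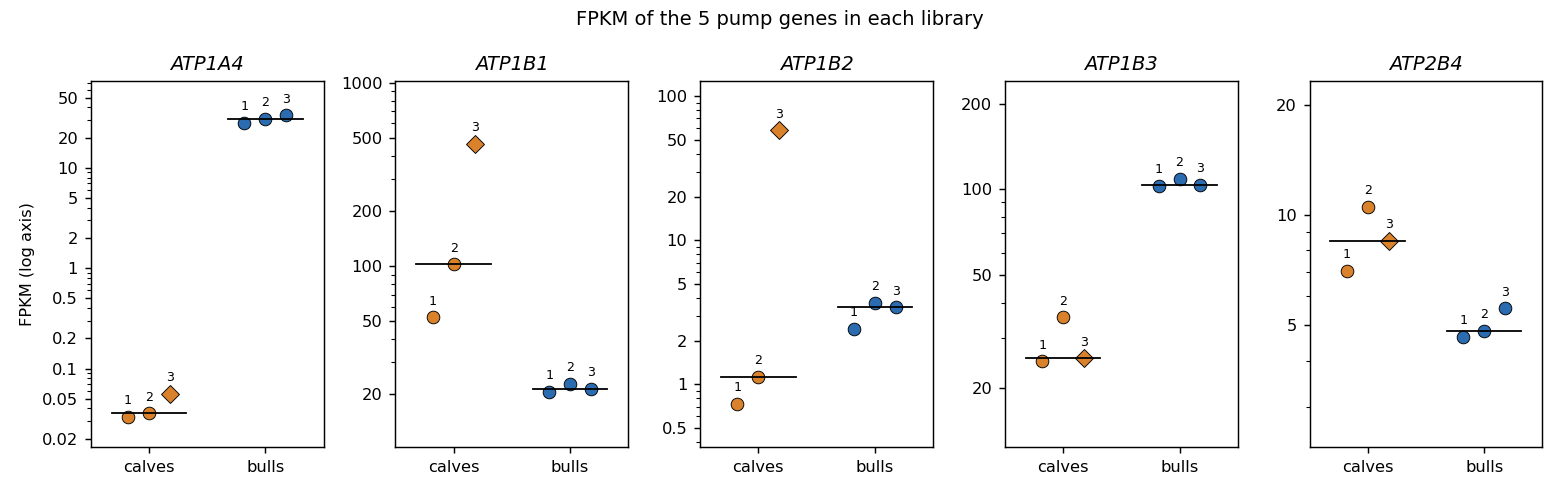
FPKM of the 5 pump genes on log axes, with 1 point per library (circles, and a diamond for calf 3) numbered within calves and bulls and a line at each group's median. Bulls lie above all calves for ATP1A4 and ATP1B3 and below all calves for ATP1B1 and ATP2B4, while calf 3 alone holds the high ATP1B2 value of 57.9.

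ATP1A4, the germ cell alpha subunit, was close to 0 in every calf and well expressed in every bull. Its FPKM was 0.0331 in calf 1, 0.0357 in calf 2 and 0.0561 in calf 3, and 28.1 in bull 1, 30.7 in bull 2 and 33.4 in bull 3. The groups were far apart, and calf 3 did not differ from the other calves in this respect. The mean FPKM was 0.0416 ± 0.0126 in calves and 30.7 ± 2.65 in bulls (SD, n = 3). The log2 fold change of ATP1A4 was 4.92 (SE 0.16, 95% interval 4.53 to 5.32, adjusted p = 6.13e-06, limma), a value on the log2(FPKM + 1) scale that understates the change of a gene near 0. Without calf 3 it was 4.93 (adjusted p = 1.23e-06, limma). With a pseudocount of 0.1 in place of 1 the value was 7.76, and ATP1A4 was called higher in each of the 15 alternatives run. ATP1A4 reached an FPKM of 1 in bulls only, and so passed the filter on low values through the group where it was high. Its calls and adjusted p therefore describe these values and add no separate support. The gene (ENSBTAG00000038523) lies on chromosome 3 from 9488276 to 9520439 in the table of genes, whose positions fit an ARS-UCD assembly.

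ATP1B1, the most widely expressed beta subunit, had the opposite pattern and was lower in bulls. Its FPKM was 52.5 in calf 1, 102.4 in calf 2 and 464.8 in calf 3, and 20.7, 22.8 and 21.4 in bulls 1 to 3. The bulls were close to each other and below every calf, while the calves were far from each other and calf 3 was 6.0 times the mean of the other calves. The mean FPKM was 207 ± 225 in calves and 21.6 ± 1.11 in bulls (SD, n = 3). The log2 fold change of ATP1B1 was -2.60 (SE 0.77, 95% interval -4.48 to -0.72, adjusted p = 0.0294, limma). Without calf 3 it was -1.72 (SE 0.27, 95% interval -2.37 to -1.06, adjusted p = 0.00142, limma), and the mean of calf 1 and calf 2 was 3.58 times that of bulls. The call was lost when calf 2 (adjusted p = 0.0542, limma), bull 1 (0.0920), bull 2 (0.0841) or bull 3 (0.0894) was left out and calf 3 was kept. The gene (ENSBTAG00000002688) lies on chromosome 16 from 36759212 to 36784818.

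ATP1B2, the beta subunit of glia, gave a result that turned on calf 3. Its FPKM was 0.736 in calf 1, 1.13 in calf 2 and 57.9 in calf 3, and 2.44, 3.68 and 3.43 in bulls 1 to 3. Bulls were above calf 1 and calf 2 and below calf 3, which was 62.1 times the mean of the other calves. The mean FPKM was 19.9 ± 32.9 in calves and 3.18 ± 0.657 in bulls (SD, n = 3). The log2 fold change of ATP1B2 over all libraries was -0.54 (SE 1.36, 95% interval -3.88 to 2.80, adjusted p = 0.759, limma), so that neither direction could be told. Without calf 3 it was 1.11 (SE 0.19, 95% interval 0.63 to 1.59, adjusted p = 0.00242, limma), and the mean of bulls was 3.42 times that of calf 1 and calf 2. That call was lost under quantile normalization with calf 3 left out, where the log2 fold change was 0.33 (adjusted p = 0.134, limma). In calf 3, astrocyte markers summed to an FPKM of 1787, against 7.65 in calf 1, 6.83 in calf 2 and 6.70 to 8.07 in bulls. Oligodendrocyte markers summed to 13017 in calf 3 against 19.7 to 29.4 elsewhere, and neuron markers to 809.7 against 4.47 to 15.6. The gene (ENSBTAG00000013680) lies on chromosome 19 from 27364091 to 27369121.

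ATP1B3, which encodes the beta3 subunit, was higher in bulls. Its FPKM was 24.9 in calf 1, 35.5 in calf 2 and 25.5 in calf 3, and 103.1, 109.2 and 103.5 in bulls 1 to 3. The groups did not overlap, and calf 3 lay between the other calves. The mean FPKM was 28.6 ± 5.95 in calves and 105 ± 3.39 in bulls (SD, n = 3). For ATP1B3 the log2 fold change was 1.86 (SE 0.18, 95% interval 1.41 to 2.31, adjusted p = 0.000339, limma), and 1.79 without calf 3 (adjusted p = 0.000122, limma), where the mean of bulls was 3.48 times that of calf 1 and calf 2. Under quantile normalization it was 1.06 (adjusted p = 0.00368, limma), and 0.97 with calf 3 also left out, just under the threshold of fold (adjusted p = 0.000917, limma). The gene (ENSBTAG00000014140) lies on chromosome 1 from 127050091 to 127096289.

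ATP2B4, the calcium pump of the sperm flagellum, was not higher in bulls: each bull was below each calf, by less than the threshold of fold. Its FPKM was 7.03 in calf 1, 10.5 in calf 2 and 8.48 in calf 3, and 4.66, 4.82 and 5.57 in bulls 1 to 3. Calf 3 lay between the other calves. The mean FPKM was 8.68 ± 1.76 in calves and 5.01 ± 0.484 in bulls (SD, n = 3). For ATP2B4 the log2 fold change was -0.67 (SE 0.20, 95% interval -1.16 to -0.19, adjusted p = 0.0283, limma), and -0.68 without calf 3 (adjusted p = 0.0175, limma). Under quantile normalization the log2 fold change was -1.20 (adjusted p = 0.00260, limma) and ATP2B4 passed as lower, in a fit whose median over all genes was -0.26. The gene (ENSBTAG00000014059) lies on chromosome 16 from 1400155 to 1497069.

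**Figure D2:**
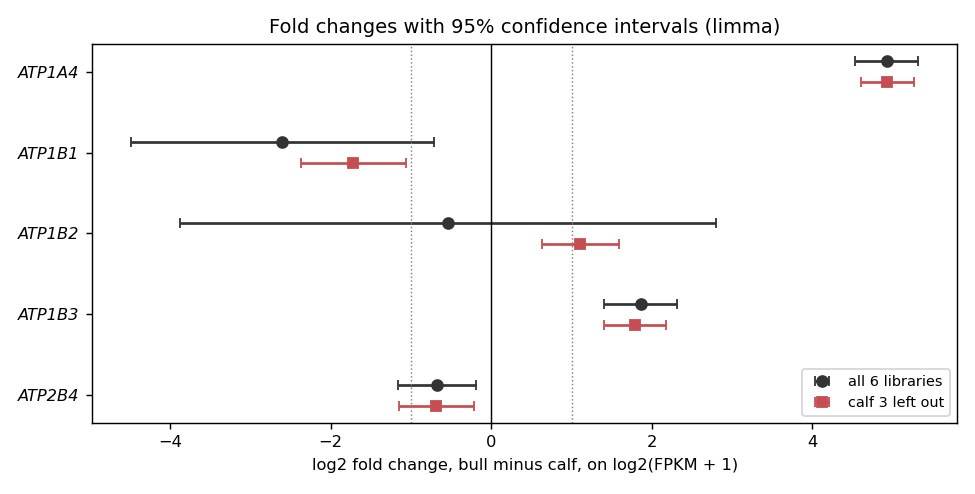
Log2 fold changes of the 5 pump genes, bull minus calf, on log2(FPKM + 1), with 95% confidence intervals from limma over all 6 libraries (circles) and with calf 3 left out (squares); dotted lines mark the threshold of 1 in each direction. The ATP1B2 interval runs from -3.88 to 2.80 with calf 3 and from 0.63 to 1.59 without it, while ATP1A4, ATP1B3 and ATP2B4 hardly move.

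The order of the 5 genes differed between the ages. In bulls the FPKM fell from ATP1B3 through ATP1A4, ATP1B1 and ATP2B4 to ATP1B2, and the values of neighbours in this order did not overlap. In calves ATP1B1 was the highest of the 5 genes in each library, and ATP1A4 was the lowest. In calf 1 and calf 2 the order between them was ATP1B3, ATP2B4 and ATP1B2. In calf 3 ATP1B2 was above both ATP1B3 and ATP2B4, so that its range over the 3 calves overlapped theirs, while the ranges of ATP1B1, ATP1B3, ATP2B4 and ATP1A4 did not overlap each other.

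Shares within the beta genes and within the plasma membrane calcium pump genes, which do not depend on a scaling factor of the library, gave the make-up of these families at each age. They were compared by the exact two-sided permutation test over 20 labelings. With 3 animals against 3, a p of 0.1 is the smallest this test can give, so no share can pass 0.05.

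Among the beta genes, ATP1B1 led in calves and ATP1B3 led in bulls. ATP1B1 held 67.1%, 73.6% and 84.8% of the summed beta FPKM in calves 1 to 3 and 16.4%, 16.8% and 16.7% in bulls 1 to 3. The means were 75.2% ± 8.93 and 16.6% ± 0.234 (SD, n = 3; exact permutation p = 0.1). ATP1B3 held 31.9%, 25.5% and 4.65% in calves and 81.7%, 80.4% and 80.7% in bulls, with means of 20.7% ± 14.2 and 80.9% ± 0.669 (SD, n = 3; exact permutation p = 0.1). Both shares separated the groups without overlap, with or without calf 3. ATP1B2 held 0.941%, 0.812% and 10.6% in calves and 1.93%, 2.71% and 2.67% in bulls. Its difference in mean share was -1.66 percentage points over all libraries (exact permutation p = 1) and 1.56 points without calf 3 (exact permutation p = 0.1). ATP1B4, the remaining beta gene, was listed at 0 in calf 3 and bull 1 and held at most 0.0518% elsewhere. The ratio of ATP1B3 to ATP1B1 was 0.475, 0.347 and 0.0548 in calves 1 to 3 and 4.99, 4.78 and 4.84 in bulls 1 to 3, hence below 1 in every calf and above 4 in every bull.

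**Figure D3:**
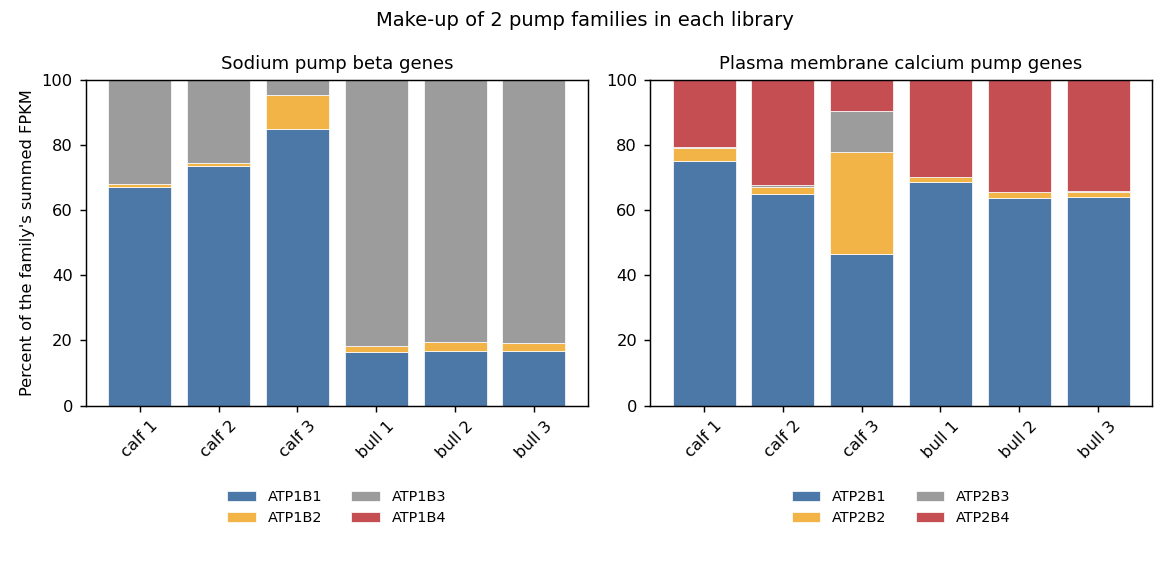
Percent of the summed FPKM of the sodium pump beta genes (left) and the plasma membrane calcium pump genes (right) held by each gene, with 1 bar per library. ATP1B3 rises from at most 31.9% in calves to 80.4% or more in bulls, and ATP2B2 and ATP2B3 hold 31.3% and 12.6% in calf 3.

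The summed level of the beta genes did not separate the ages. The 4 genes summed to an FPKM of 78.2, 139.0 and 548.2 in calves 1 to 3 and 126.2, 135.7 and 128.3 in bulls 1 to 3. All bulls lay between calf 1 and calf 2, and calf 3 was far above.

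Within the calcium pumps of the plasma membrane, the share of ATP2B4 overlapped between the ages. It held 20.6%, 32.3% and 9.63% of the summed FPKM of ATP2B1 to ATP2B4 in calves 1 to 3 and 29.9%, 34.6% and 34.3% in bulls 1 to 3. The groups overlapped, with means of 20.9% ± 11.4 and 32.9% ± 2.61 (SD, n = 3; exact permutation p = 0.2), and without calf 3 the difference was 6.46 points (exact permutation p = 0.3). ATP2B1, the housekeeping pump of this family, led in every library with 75.1%, 64.9% and 46.5% in calves and 68.7%, 63.8% and 63.9% in bulls. ATP2B2 and ATP2B3, which are pumps of neurons, held 31.3% and 12.6% in calf 3 and at most 3.89% and 0.505% in the other libraries. The family summed to an FPKM of 34.2, 32.6 and 88.1 in calves and 15.6, 14.0 and 16.2 in bulls, so that each bull was below each calf.

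The table of transcripts showed which products carried these values. It listed 10 transcripts of the 5 genes, whose FPKM added up to the gene value in each library (tolerance 0.001), and 8 passed the filter. Of these 8, 3 were called higher in bulls and 1 was called lower, against 34.8% and 9.37% of the 23212 transcripts tested. Without calf 3, 4 were higher and 1 was lower, against 36.1% and 13.1% of all transcripts. ATP1A4 and ATP1B2 had 1 transcript each, with the same values as the gene. The main ATP1B1 transcript (ENSBTAT00000063162) carried 95.4% ± 0.487 of the gene in calves and 93.9% ± 2.22 in bulls (SD, n = 3). Its log2 fold change was -2.62 (SE 0.77, adjusted p = 0.0299, limma), and -1.74 without calf 3 (adjusted p = 0.00333, limma). The call was lost without the filter on low values (adjusted p = 0.0688, limma) and when calf 2 (0.0550), bull 1 (0.0960), bull 2 (0.0852) or bull 3 (0.0914) was left out. A second one (ENSBTAT00000046914) had an FPKM of 2.11, 4.84 and 23.2 in calves and 1.76, 0.964 and 1.17 in bulls and did not pass (log2 fold change -1.74, adjusted p = 0.0964, limma, and -0.91 with adjusted p = 0.0526 without calf 3), and the remaining ATP1B1 transcript (ENSBTAT00000080062) was at most 0.263 and was not tested.

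ATP1B3 had 2 transcripts, and both were called higher in bulls. The main transcript (ENSBTAT00000018795) had an FPKM of 24.3, 34.9 and 25.0 in calves 1 to 3 and 94.4, 100.2 and 94.1 in bulls 1 to 3, with a log2 fold change of 1.76 (SE 0.19, adjusted p = 0.000566, limma), and 1.69 without calf 3. Under quantile normalization this value was 0.96, just under the threshold of fold. An assembled transcript that the table names ATP1B3-AS1 (TCONS_00007999) lies on chromosome 1 from 127085662 to 127096289, spans 10628 bases and shares 594 bases with the locus of the main transcript. Its FPKM was 0.676, 0.577 and 0.522 in calves and 8.72, 8.96 and 9.40 in bulls, and its log2 fold change was 2.66 (SE 0.17, adjusted p = 7.08e-05, limma), and 2.62 without calf 3. It held 2.71%, 1.63% and 2.05% of the gene's FPKM in calves and 8.46%, 8.21% and 9.08% in bulls (means 2.13% ± 0.548 and 8.58% ± 0.448, SD, n = 3; exact permutation p = 0.1). The groups did not overlap in this share. The name denotes an antisense RNA, but the tables give no strand and the counting setting is not stated, so reads of the gene and of this transcript cannot be told apart where they overlap.

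ATP2B4 had 3 transcripts, of which ENSBTAT00000071315 was the main one. Its FPKM was 5.48, 8.76 and 4.95 in calves and 2.80, 3.36 and 3.75 in bulls, and its log2 fold change of -0.75 (adjusted p = 0.0474, limma), or -0.89 without calf 3, stayed under the threshold of fold. It held 78.02%, 83.1% and 58.3% of the gene in calves and 60.2%, 69.8% and 67.4% in bulls (exact permutation p = 0.5), so that the groups overlapped. A second transcript (ENSBTAT00000079645), which spans a shorter stretch of the locus, had 1.29, 1.64 and 1.97 in calves and 0.937, 1.29 and 1.03 in bulls (log2 fold change -0.33, adjusted p = 0.138, limma, and -0.24 without calf 3). The remaining one (ENSBTAT00000018688) ranged from 0.136 to 1.56 and was not tested.

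The genes around the pump genes did not all follow them, and those named here were not picked by a rule. CASQ1, a calcium-binding protein of muscle that lies 3529 bases from ATP1A4, had an FPKM of 6.84, 6.74 and 0.474 in calves and 1.58, 1.65 and 1.53 in bulls. NME7, a kinase of cilia, overlaps the end of ATP1B1 by 270 bases and had 9.76, 11.2 and 11.2 in calves against 39.2, 33.3 and 38.1 in bulls. NME7 was thus higher in every bull than in every calf, the reverse of ATP1B1. SHBG, the sex hormone binding globulin, overlaps ATP1B2 by 1330 bases and had 3.03, 2.56 and 1.498 in calves and 5.13, 7.78 and 7.504 in bulls. SHBG was lowest in calf 3, where ATP1B2 was highest, and without strand the reads of both genes in the shared bases cannot be told apart.

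For each pump gene, the tested genes with the most similar profile were listed by the root mean square difference of centred log2(FPKM + 1) over the 6 libraries, as a description. Nearest to ATP1A4 were C11H2orf81 (0.0641), AQP7 (0.0645), a channel for water and glycerol, and LMNTD1 (0.0651). AQP7 had an FPKM of 0.105, 0.102 and 0.268 in calves and 29.4, 33.7 and 36.9 in bulls, and with calf 3 left out it was the nearest gene to ATP1A4 (0.0278), before COX6B2 (0.050) and SAMD15 (0.0597). Nearest to ATP1B3 were NAE1 (0.0450), FKBP2 (0.0601) and ADAM8 (0.0724), and NAE1 was also among the 3 nearest without calf 3 (0.0473), after SLC45A4 (0.0448) and SLC25A2 (0.0466). Nearest to ATP2B4 were PUS7 (0.0547), PDF (0.0763) and L3HYPDH (0.0828), of which L3HYPDH was also nearest without calf 3 (0.0266), followed by EPB41L2 (0.0357).

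For the pump genes that were high in calf 3, the neighbours in profile differed with and without it. Nearest to ATP1B1 over all libraries were PCDHAC2 (0.168), CAMK2B (0.193) and SLC38A1 (0.201), and each was highest in calf 3, at an FPKM of 27.1, 20.5 and 40.1. Without calf 3 they were HMGN1 (0.0281), NT5C1A (0.0610) and PRKACB (0.0673). HMGN1, a nucleosome-binding protein, had 48.7 and 100.6 in calf 1 and calf 2 and 20.1, 21.8 and 20.7 in bulls, but only 13.5 in calf 3. Nearest to ATP1B2 were PSD2 (0.144), RAPGEF5 (0.174) and FAIM2 (0.182), all highest in calf 3 with 47.8, 93.9 and 102.5, and without calf 3 they were IQCA1 (0.0412), MRPL24 (0.0451) and PSD (0.0557).

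The wider set of pumps and exchangers reported here comprised 35 genes, of which 34 were in the table and 22 passed the filter. Leaving the 5 pump genes aside, 17 genes were tested, and 5 were called higher in bulls and 3 lower, against 35.7% and 9.61% of all genes. Without calf 3, 7 were higher and 4 were lower, against 37.9% and 13.6% of all genes. Their median log2 fold change was 0.26 with calf 3 and -0.20 without it, beside 0.43 over all genes tested in both cases. With the 5 pump genes included, 7 were higher and 4 lower over all libraries, and quantile normalization gave 6 higher and 10 lower, in a fit where the calls over all genes also turned, to 21.1% higher and 25.1% lower. Of the 29 genes in the table other than the 5, 12 were highest in calf 3. The share of all genes that were highest there was not counted, so this number cannot be read as a trait of these genes.

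The FXYD genes encode small membrane proteins that bind the sodium pump and tune its affinity for ions. Of 6 in the table, 4 were tested, none was called higher and 2 were called lower, FXYD5 and FXYD6, against 35.7% and 9.61% of all genes. FXYD6 had an FPKM of 125.7, 155.5 and 43.0 in calves and 20.02, 17.1 and 22.0 in bulls (log2 fold change -2.21, adjusted p = 0.00967, limma, and -2.77 without calf 3). FXYD5 was low in all libraries, with 1.94, 1.36 and 4.36 in calves and 1.07, 0.446 and 0.398 in bulls (log2 fold change -1.05, adjusted p = 0.0418, limma), and without calf 3 it did not pass (-0.71). The FXYD5 call was lost in 9 of the 15 alternatives, among them each fit without calf 1 or without any single bull. FXYD1, known as phospholemman, had 18.0, 12.1 and 9.74 in calves and 27.7, 20.4 and 19.7 in bulls and did not pass (log2 fold change 0.75, adjusted p = 0.0541, limma, and 0.56 without calf 3). The loci of FXYD1, FXYD5 and FXYD7 overlap in the table, so their values are uncertain. FXYD4 did not pass, and FXYD2 and FXYD7 were not tested.

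The proton and potassium pumps, close relatives of the sodium pump, had no gene that passed the filter. ATP4B, the beta subunit of the stomach pump, nevertheless had an FPKM of 11.3 in calf 1 and 15.5 in calf 2, against 0.247 in calf 3 and 0.113, 0.371 and 0.114 in bulls. The filter asked for an FPKM of 1 in 3 of the 6 libraries, also when calf 3 was left out, so ATP4B could not be tested. In this way a gene of calf 1 and calf 2 alone is lost, while a gene of bulls alone is kept. In each calf ATP4B was above its catalytic partner ATP4A, which was at most 0.142 there, and in each bull it was below ATP4A, which lay between 0.323 and 0.783. ATP12A was not tested either.

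Among the calcium pumps of the plasma membrane, ATP2B1 was lower in bulls, with an FPKM of 25.7, 21.1 and 40.95 in calves and 10.7, 8.91 and 10.4 in bulls (log2 fold change -1.41, adjusted p = 0.00499, limma, and -1.15 without calf 3). ATP2B2 and ATP2B3 were not tested and had 27.6 and 11.1 in calf 3. BSG and NPTN, the glycoproteins that act as auxiliary subunits of these pumps, did not pass over all libraries in the report's fit. BSG had 308.3, 247.1 and 88.4 in calves and 112.0, 118.8 and 111.6 in bulls, and was called lower without calf 3 (log2 fold change -1.27, adjusted p = 0.000183, limma). NPTN had 18.2, 16.3 and 68.1 in calves and 13.2, 13.8 and 12.9 in bulls (log2 fold change -0.99, adjusted p = 0.168, limma), and without calf 3 the value was -0.35 (adjusted p = 0.0261, limma). Under quantile normalization both were called lower, BSG at -1.21 (adjusted p = 0.0203, limma) and NPTN at -1.65 (adjusted p = 0.0436, limma). With calf 3 also left out they were called lower at -1.59 and -1.01.

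The pumps that fill intracellular calcium stores included genes that were higher in bulls. Of 4 tested, ATP2A3 was called higher over all libraries, and ATP2A2 and ATP2C1 were also called higher without calf 3, against 35.7% and 37.9% of all genes. All 3 calls were lost under quantile normalization with calf 3 left out, at log2 fold changes of 0.93, 0.65 and 0.32. ATP2A3 had an FPKM of 5.02, 4.74 and 2.18 in calves and 13.2, 15.1 and 17.4 in bulls (log2 fold change 1.75, adjusted p = 0.00309, limma, and 1.46 without calf 3). ATP2A2, the SERCA2 pump of the endoplasmic reticulum, had 20.8, 22.1 and 152.8 in calves and 61.3, 62.0 and 56.4 in bulls (log2 fold change 0.51, adjusted p = 0.600, limma, and 1.44 with adjusted p = 4.27e-05 without calf 3). Its direction over all libraries turned under quantile normalization (-0.33). ATP2C1, a pump of the Golgi apparatus, had 34.8, 34.9 and 56.8 in calves and 77.6, 80.0 and 73.9 in bulls (log2 fold change 0.89, adjusted p = 0.0176, limma, and 1.12 without calf 3), and 0.08 under quantile normalization. PLN, a small inhibitor of SERCA pumps, was called higher, with 1.01, 1.06 and 1.87 in calves and 4.22, 3.82 and 4.55 in bulls (log2 fold change 1.18, adjusted p = 0.00308, limma, and 1.35 without calf 3). The PLN call was lost under quantile normalization, at 0.52 (adjusted p = 0.0753, limma), and at 0.64 with calf 3 also left out. ATP2C2 did not pass, but was called lower under quantile normalization (log2 fold change -1.28, adjusted p = 0.00121, limma). ATP2A1 and SLN were not tested.

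Exchangers that use the sodium gradient included 3 genes that were near 0 in calf 1 and calf 2 and well expressed in bulls. SLC8A3, a sodium and calcium exchanger, had an FPKM of 0.295, 0.226 and 3.08 in calves and 29.5, 25.7 and 35.2 in bulls (log2 fold change 4.05, adjusted p = 0.000819, limma, and 4.61 without calf 3). SLC8A1 had 4.35, 3.30 and 31.5 in calves and 1.05, 1.96 and 1.22 in bulls and was called lower without calf 3 (log2 fold change -1.01, adjusted p = 0.00519, limma, against -1.93 and 0.0804 over all libraries). With calf 3 kept, SLC8A1 was also called lower under quantile normalization (-2.76, adjusted p = 0.0260, limma) and with array weights (-1.04, adjusted p = 0.0106, limma). SLC9C1, the sperm-specific sodium and proton exchanger, had 0.142, 0.134 and 0.0352 in calves and 22.4, 22.6 and 24.3 in bulls (log2 fold change 4.45, adjusted p = 7.87e-06, limma, and 4.41 without calf 3). SLC9B1, another exchanger of the sperm tail, had 0.664, 0.661 and 0.583 in calves and 48.4, 47.3 and 44.7 in bulls (log2 fold change 4.87, adjusted p = 4.98e-06, limma, and 4.84 without calf 3). SLC9C1 and SLC9B1 reached an FPKM of 1 in bulls only, and so passed the filter through the group where they were high. SLC8B1 did not pass, and SLC8A2 and SLC9B2 were not tested.

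**Figure D4:**
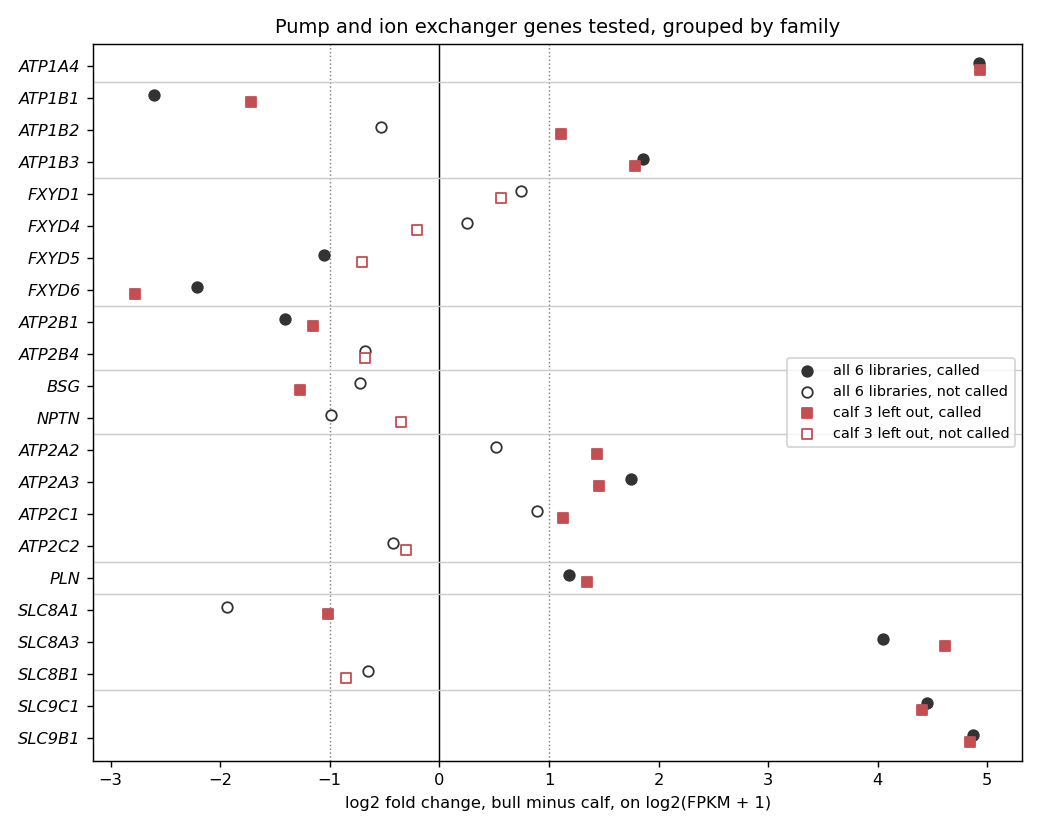
Log2 fold changes, bull minus calf, on log2(FPKM + 1) for the 22 pump and exchanger genes tested, over all 6 libraries (circles) and with calf 3 left out (squares); filled symbols passed, open ones did not, dotted lines mark the threshold of 1 in each direction and grey lines divide the lists. ATP1A4, SLC9B1, SLC9C1 and SLC8A3 lie at 4.05 or above, while ATP1B1, FXYD6, ATP2B1 and SLC8A1 lie below -1 with and without calf 3. Of these, SLC8A1 passed only without calf 3 in the fits shown.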

How the data were processed

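Testicular RNA of 3 calves and 3 bulls was analysed from tables of genes and of transcripts in which the authors deposited FPKM values per library. According to the Methods, the authors removed low-quality reads and those matching ribosomal RNA (Bowtie2), mapped the rest with TopHat2 to UMD3.1.1 and assembled transcripts with StringTie. The tool behind the FPKM of genes is not given in the sources used here. Of 17539 gene symbols, 16298 matched RefSeq genes of ARS-UCD2.0 and 99.7% of these overlapped the same locus, so the tables' positions are given as ARS-UCD. Counts were not given, so the counting error of a value is unknown, and the reads per library that the study states were not used here.

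The members and lists were chosen with earlier results of these data known. All 5 genes are named, with every gene of the lists by its call (values where called or where a group's median FPKM was at least 5, besides a few named after their values were seen), and the 3 genes nearest each in profile. Features entered the fits where 3 or more of the 6 libraries reached an FPKM of 1, and log2(FPKM + 1) was fitted by group with limma 3.58.1 (empirical Bayes with trend, R 4.3.3, two-sided). The filter stayed on all 6 libraries when a library was left out. The Benjamini-Hochberg adjustment ran over every feature fitted. The procedure was tested on simulated data, where it missed more of the changed genes with the spread that includes calf 3 than without it. Shares within families were compared by the exact permutation test. No 2 libraries were duplicates, with identical values in at most 5.25% of tested genes. Alternatives covered the pseudocount, filter, scaling, trend, weights, replicate block and each library left out, and those combining a scaling with calf 3 left out, like the nearest genes without calf 3, were chosen after the data were seen. Some genes of the planned lists, and the planned share that needs them, are not reported here. Promoter motifs were planned but not searched, as no sequence was used here. Figures were drawn with matplotlib 3.10.9.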

Additional observations from a re-analysis of the deposited data

How the results depend on the processing

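ATP1A4, which passed the filter through bulls alone, was called higher in each of 15 alternatives, with log2 fold changes from 3.96 (quantile normalization) to 7.76 (pseudocount of 0.1). The number of the 5 genes called ranged from 2 to 4, that of the 22 pump and exchanger genes from 9 to 16 and that of the 8 transcripts from 3 to 6, against 3, 11 and 4 in the report. The median of all genes tested was 0.43 on the log2 scale, 0.35 with median of ratios size factors, 0.56 with a pseudocount of 0.1, 0.12 without the filter and -0.26 with quantile normalization, so directions under quantile normalization are relative to a shifted centre. The difference in ATP1B2 share reversed without calf 3 and ranged from -3.31 to 1.56 percentage points when each library was left out. The log2 fold change of ATP1B2 and that of its transcript ranged from -1.43 to 1.11 when each library was left out. The log2 fold change of ATP1B2 reversed to 1.03 with array weights, 1.11 without calf 3, 0.33 with quantile normalization and 1.06 with median of ratios size factors when calf 3 was left out, and that of its transcript to 1.01, 1.11, 0.47 and 1.09 under the same settings. Array weights gave calf 3 a weight of 0.0771 and the others 1.39 to 1.93. FXYD1 reversed to -0.12 with quantile normalization and calf 3 left out. FXYD4, at 0.26 in the report's fit, reversed to -0.76 with quantile normalization, -0.19 with array weights, -0.20 without calf 3 (with each library left out, it ranged from -0.20 to 0.73), and -1.06 and -0.26 with quantile normalization and median of ratios size factors when calf 3 was left out. ATP2A2 reversed to -0.33 with quantile normalization. The causes were not tested. When any single bull was left out, 2 of the 22 genes were called lower in bulls, against 4. Over all 18115 genes the number called lower also fell, from 1741 to 1218, 1289 and 1299 without bull 1, bull 2 and bull 3.

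The deviations of same-numbered calves and bulls had correlations of 0.0277, 0.0246 and 0.0341. With 3 animals per group, and calf 3 apart from the other calves, these values do not settle whether the numbers mark a pair or a batch. The labels give the number only. With the replicate block, 2 of the 5 genes were higher and 1 was lower, 10 of 22 pump and exchanger genes were called against 11, FXYD5 being lost, and 4 transcripts were called. Differences in share under the replicate block were -58.6 points for ATP1B1, -1.66 for ATP1B2, 60.2 for ATP1B3 and 12.1 for ATP2B4, with sign flip p-values of 0.25, the smallest they can give, for all but ATP1B2 (exact sign flip p = 1).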
